A study of Mus musculus with 6 samples.

Results

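The genes described here are 10 cytosolic aminoacyl-tRNA synthetase genes, Aars, Eprs, Gars, Iars, Mars, Nars, Sars, Tars, Wars and Yars. They were taken by name from the 23420 rows of a gene count table, without a cut on their values. Earlier results of these data were known when the list was made. All 10 passed the filter on low counts, as did 16067 genes in all. The table holds ribosome-bound RNA from cerebellar Purkinje neurons of C57BL/6 mice aged 4 weeks. It was isolated by BacTRAP, in which a tagged ribosomal protein made under the Purkinje cell gene Pcp2 is pulled down together with the RNA it carries. The 3 conditional knockout libraries, named cKO below, carried Pcp2-BacTRAP, Pcp2-Cre and Rbm17 f/-, that is 1 floxed and 1 null allele. The 3 control libraries carried Pcp2-BacTrap and Rbm17 f/+ and had no Cre, so effects of Cre or of the null allele, which cKO alone had, cannot be told apart from the loss of the floxed allele. Each library came from 1 cerebellum.

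Aminoacyl-tRNA synthetases join each amino acid to its tRNA and so supply translation with charged tRNA. Most cytosolic enzymes handle 1 amino acid, and a subset is held in a large multisynthetase complex. When amino acids run short or unfolded protein builds up, kinases that phosphorylate eIF2 favour translation of the transcription factor ATF4, which is known to raise many cytosolic synthetase genes together with genes for amino acid synthesis and uptake. Several synthetases are linked to disease of neurons: dominant mutations in human GARS1, YARS1 and AARS1 cause Charcot-Marie-Tooth neuropathy, and the sticky mutation of mouse Aars, which weakens proofreading, causes loss of Purkinje cells. RBM17 is a splicing factor that acts at 3' splice sites, and the title of the series names cryptic splicing after its loss. The comparison therefore asks whether these synthetase messages differ in amount or in splicing between cKO and control.

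Gene counts summed to 140110897 to 160571518 per library, and 73457422 to 83976095 reads spanned splice junctions. Rbm17 had 25.7, 25.6 and 26.3 CPM (counts scaled to library size) in cKO, against 41.2, 42.5 and 41.3 CPM in control, a log2 fold change of -0.69 (SE 0.089, adjusted p = 0.0016 by edgeR's quasi-likelihood test). Markers of Purkinje cells summed to 14443 to 17039 CPM over 8 genes in cKO, against 25399 to 34639 CPM in control, and 6 of the 8 fell. Markers of microglia summed to 60.6 to 103.2 CPM in cKO and 30.9 to 45.3 CPM in control, and 4 of 8 rose. Of the other cell types, 6 granule cell markers summed to 2686 to 4513 CPM in cKO and 3182 to 4540 CPM in control, 6 oligodendrocyte markers to 1995 to 3003 CPM in cKO and 2513 to 3842 CPM in control, and 6 endothelial markers to 5.30 to 11.1 CPM in cKO and 5.03 to 12.4 CPM in control, with no marker called in these lists. Among 6 markers of astrocytes and Bergmann glia, which summed to 746.6 to 1037 CPM in cKO and 1012 to 1320 CPM in control, Gfap rose and Hopx fell. Synthetase genes are active in every cell type, so each level below is that of the mixture in the pull-down, in which fewer cells of a type and less RNA per cell cannot be told apart. The part of these marker differences in the values below was not tested.

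No cytosolic synthetase gene of the 10 passed the test in either direction (adjusted p under 0.05 over all 16067 genes), while 7.87% of all tested genes did, 4.03% upward and 3.85% downward. None had an unadjusted p under 0.05 by edgeR's quasi-likelihood test, where 22.1% of all genes did, and none was called by DESeq2 or by limma-voom. In none of the 10 did the cKO and control libraries separate without overlap, as they did in 28.4% of tested genes. The estimated log2 fold changes of cKO over control lay above 0 in 8 genes and below 0 in Wars and Yars, with a median of 0.09 against 0.01 over all tested genes. They ranged from -0.24 for Wars to 0.35 for Eprs. Every 95% interval held 0. The intervals of 8 genes, that is all but Aars and Eprs, lay wholly below a 1.5-fold increase, and those of all 10 lay above a 1.5-fold decrease.

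**Figure D1:**
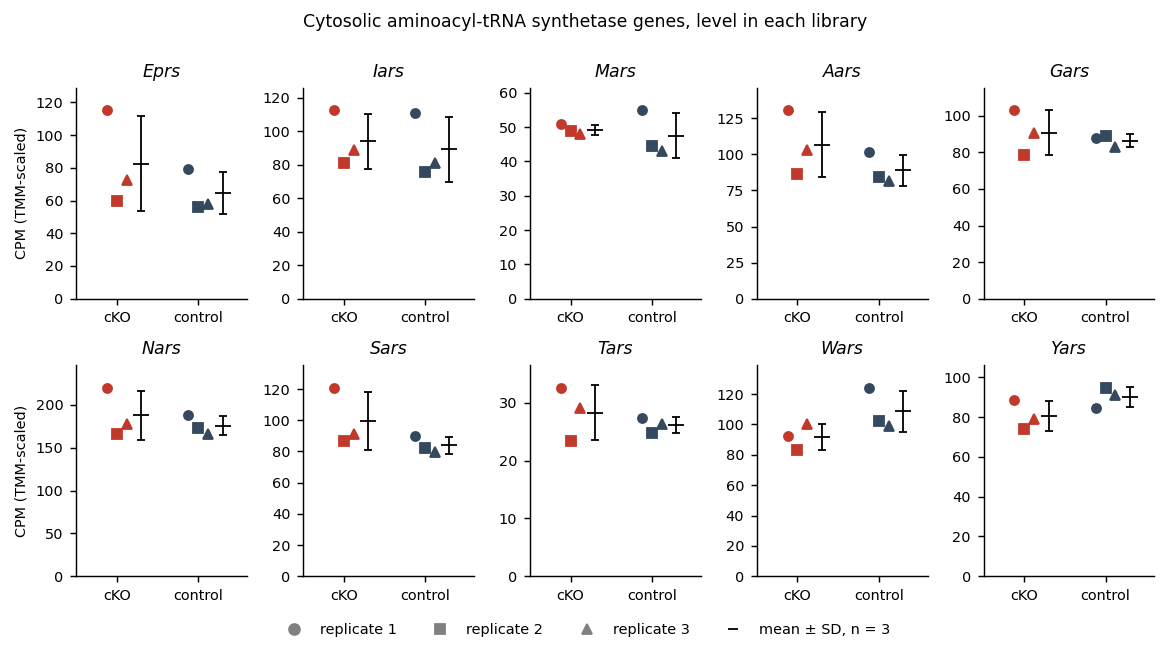
Level of each cytosolic synthetase gene in each library, in CPM on TMM-scaled library sizes, with cKO (3 libraries) left of control (3 libraries) in each panel, points for libraries and bars for the group mean and SD. In all 10 panels the cKO and control points overlap, and in 9 the first cKO library is the highest of the cKO points.

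Eprs, Iars and Mars encode members of the multisynthetase complex. Eprs makes a bifunctional enzyme that charges both glutamate and proline tRNA, and it lies on chromosome 1 at 185363044 to 185428360 (mm10, GENCODE M21). It had 115.2, 59.5 and 72.6 CPM in cKO, against 79.4, 56.3 and 58.0 CPM in control. A single cKO library was high and the others lay inside the control range, so the groups overlapped. Its log2 fold change of 0.35 was the highest estimate of the 10 (SE 0.221, 95% interval -0.14 to 0.84, adjusted p = 0.399 by edgeR's quasi-likelihood test), and without the first cKO library it was 0.03.

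Iars, the isoleucine enzyme on chromosome 13 at 49682100 to 49734267, had 112.5, 81.0 and 88.6 CPM in cKO, against 110.9, 75.3 and 81.0 CPM in control. The first library of each genotype was high and the rest lay close together. The log2 fold change was 0.08 (SE 0.161, edgeR adjusted p = 0.834). Mars, the methionine enzyme on chromosome 10 at 127296221 to 127311786, had 50.9, 48.9 and 47.9 CPM in cKO, against 55.0, 44.4 and 43.1 CPM in control. All cKO values lay inside the control range, and the log2 fold change was 0.05 (SE 0.109, edgeR adjusted p = 0.838). The annotated 3' end of Mars overlaps that of Ddit3, a gene on the opposite strand that rose, by 68 bp. Since the strand setting of the counting is not given in the sources used here, reads in those bases cannot be assigned to either gene.

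Aars, Gars and Yars lie outside that complex and are, among others, tied to inherited neuropathy. Aars, the alanine enzyme on chromosome 8 at 111033144 to 111057664, had 130.6, 86.2 and 103.0 CPM in cKO, against 101.4, 84.2 and 81.3 CPM in control. The groups overlapped through the second cKO library and the first control library. The log2 fold change was 0.26 (SE 0.148, 95% interval -0.07 to 0.59, edgeR adjusted p = 0.346), and without the first cKO library it was 0.09. Exosc6, a gene on the same strand, lies inside the annotated span of Aars.

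Gars, the glycine enzyme on chromosome 6 at 55038007 to 55079500, serves the mitochondrion as well as the cytosol. It had 103.0, 78.7 and 90.5 CPM in cKO, against 87.7, 89.0 and 82.7 CPM in control, and the cKO libraries lay on both sides of the control range (log2 fold change 0.07, SE 0.108, edgeR adjusted p = 0.774). Yars, the tyrosine enzyme on chromosome 4 at 129189760 to 129219607, had 88.6, 74.2 and 79.0 CPM in cKO, against 84.5, 94.8 and 91.1 CPM in control. Replicates 2 and 3 of cKO lay below all controls and replicate 1 lay within their range (log2 fold change -0.16, SE 0.097, 95% interval -0.38 to 0.06, edgeR adjusted p = 0.383).

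The remaining enzymes charge asparagine, serine, threonine and tryptophan tRNA. Nars on chromosome 18 at 64499647 to 64516652 had 220.2, 166.0 and 177.7 CPM in cKO, against 188.1, 173.5 and 165.9 CPM in control (log2 fold change 0.10, SE 0.114, edgeR adjusted p = 0.693). Only the first cKO library stood outside the control range. Sars on chromosome 3 at 108424865 to 108445209 had 120.9, 86.8 and 91.5 CPM in cKO, against 90.1, 82.2 and 79.6 CPM in control. Here cKO replicates 1 and 3 exceeded every control and replicate 2 did not (log2 fold change 0.25, SE 0.128, 95% interval -0.04 to 0.53, edgeR adjusted p = 0.293), and without cKO replicate 1 the log2 fold change was 0.09.

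Tars on chromosome 15 at 11382301 to 11399665 had 32.6, 23.3 and 29.0 CPM in cKO, against 27.3, 24.7 and 26.4 CPM in control, with cKO on both sides of the control range (log2 fold change 0.12, SE 0.130, edgeR adjusted p = 0.671). Without cKO replicate 1 its log2 fold change was 0.0021. Wars, which interferon gamma induces in human cells, lies on chromosome 12 at 108860030 to 108894174. It had 92.1, 83.0 and 100.3 CPM in cKO, against 124.2, 102.3 and 99.2 CPM in control. The third cKO library lay just above the lowest control, so the groups overlapped. Its log2 fold change of -0.24 was the lowest estimate of the 10 (SE 0.113, 95% interval -0.49 to 0.01, edgeR adjusted p = 0.246), and it had the smallest adjusted p of the 10. Without control replicate 1 its log2 fold change was -0.14. Opposite-strand genes overlap Wars and Yars in the annotation, Wdr25 at Wars and C77080 at Yars, and their reads may be counted together.

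Much of the variation among the 10 genes ran along libraries. The first cKO library was the highest cKO library for 9 genes and the highest of all 6 for 7, while over all tested genes these shares were 36.8% and 21.3%. The first control library was the highest control for 8 of the 10, against 37.5% of all tested genes. Summed over the 10 genes, the level was 1067, 787.6 and 880.1 CPM in cKO, against 948.5, 826.6 and 808.2 CPM in control, so that the lowest sum was also a cKO library. The first cKO library also stood apart in its markers, with the highest microglial sum of the 6 libraries, 103.2 CPM, and the lowest sums for Purkinje (14443 CPM), granule (2686 CPM), oligodendrocyte (1995 CPM) and astrocyte and Bergmann glia (746.6 CPM) markers. The first control library had the highest Purkinje sum of the 6 libraries, 34639 CPM, and the lowest microglial sum, 30.9 CPM. Its granule (3182 CPM), oligodendrocyte (2513 CPM) and astrocyte and Bergmann glia (1012 CPM) sums were the lowest of the controls. A list of 36 ATF4 pathway genes, described below, summed to 2092, 1805 and 1893 CPM in cKO, against 1782, 1700 and 1727 CPM in control. Replicate 1 was thus the highest of its group in this sum as well. How the marker and pathway sums bear on the synthetase levels was not tested. Without the first cKO library, the log2 fold changes of the 10 ran from -0.24 to 0.09, and those of Gars, Iars and Nars were below 0.

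Levels were compared between the genes per kilobase of annotated exon, as CPM per kb. Nars was the highest, at 43.2 ± 6.5 CPM per kb in cKO and 40.4 ± 2.6 CPM per kb in control (SD, n = 3 each). By control means, Wars followed at 26.6 ± 2.5 in cKO and 31.5 ± 4.0 in control, and Gars at 29.1 ± 3.9 in cKO and 27.7 ± 1.1 in control, while in cKO the mean of Gars was above that of Wars. The control ranges of Nars, Wars, Gars and Iars did not overlap from each to the next. Iars, Sars, Yars and Mars lay together at 17.8, 19.4, 13.6 and 14.4 CPM per kb in cKO and 16.9, 16.3, 15.2 and 13.9 in control, and neighbours among them overlapped in control. Aars came next at 11.5 in cKO and 9.58 in control, and its control range was apart from those of Mars and Tars. Tars, at 4.80 in cKO and 4.43 in control, and Eprs, at 4.56 in cKO and 3.57 in control, were the lowest and overlapped. The order depends on the length used: with the longest coding transcript in place of all annotated exons, the level moved by over 1.5 times for Nars, Yars, Aars and Eprs. Nars, Wars and Gars still led, Tars was then the lowest at 7.07 CPM per kb in cKO and 6.53 in control, and Eprs stood at 16.8 in cKO and 13.2 in control.

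**Figure D2:**
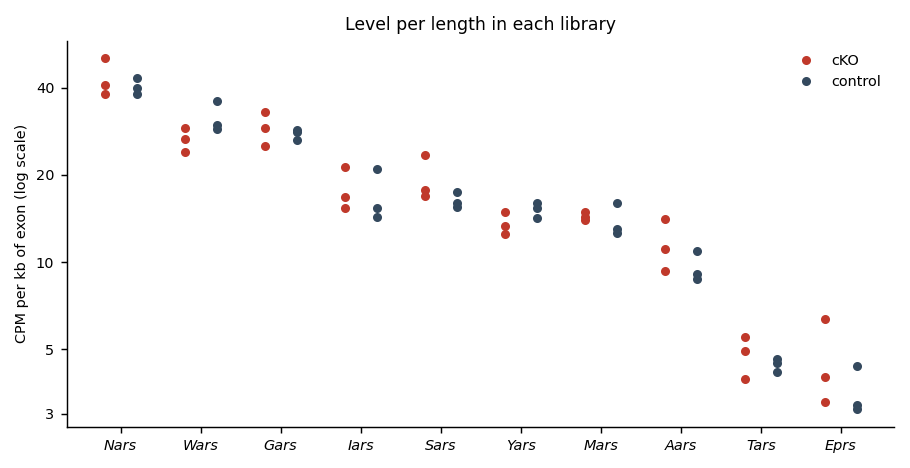
Level of each cytosolic synthetase gene in CPM per kb of annotated exon, on a log axis, with cKO drawn left of control and 1 point for each library, genes ordered by control mean. Nars, at 43.2 CPM per kb in cKO and 40.4 in control, stood above the rest, and Tars and Eprs stood lowest.

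The other parts of the charging machinery gave calls at about the share of all tested genes, of which 7.87% were called. Of 14 other cytosolic synthetase and complex genes, none rose and 1 fell, with a median log2 fold change of 0.08. The gene that fell was Aimp2, a scaffold protein of the multisynthetase complex, with 18.4, 18.0 and 18.1 CPM in cKO against 26.2, 23.4 and 26.0 CPM in control. Its groups did not overlap, and its log2 fold change was -0.47 (SE 0.103, edgeR adjusted p = 0.022), a call lost without cKO replicate 1, 2 or 3 or control replicate 3 (adjusted p 0.054 to 0.095). Of 17 mitochondrial synthetase genes, Vars2 rose, Aars2 fell and the median log2 fold change was -0.01. Vars2, the mitochondrial valine enzyme, averaged 15.6 ± 1.2 CPM in cKO and 10.4 ± 0.26 CPM in control (SD, n = 3 each; log2 fold change 0.58, edgeR adjusted p = 0.017). Aars2, the mitochondrial alanine enzyme, averaged 11.9 ± 1.2 CPM in cKO and 17.0 ± 1.3 CPM in control (SD, n = 3 each; log2 fold change -0.52, edgeR adjusted p = 0.036). The Vars2 call was lost without cKO replicate 2 or 3 or control replicate 2 (edgeR adjusted p 0.066 to 0.081), and the Aars2 call without any 1 of the 6 libraries (edgeR adjusted p 0.056 to 0.109).

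Genes of the ATF4 pathway outside the synthetases included several that rose in the same libraries. Of 36 listed, 7 rose (4.03% of all tested genes rose) and none fell, with a median log2 fold change of 0.21. The list was made with earlier results of these data known, so the share that rose is no independent test. Atf4 itself had 320.7, 299.9 and 308.1 CPM in cKO, against 192.0, 189.9 and 209.2 CPM in control, a log2 fold change of 0.65 (SE 0.084, edgeR adjusted p = 0.0016). The 95% intervals of 9 synthetase genes, that is all but Eprs, lay below that estimate. The 95% interval of Atf4 itself was 0.46 to 0.84, and those of Eprs, Aars and Sars reached into it. Ddit3, which encodes the stress transcription factor CHOP, had 34.7, 24.7 and 25.3 CPM in cKO, against 11.3, 8.18 and 9.31 CPM in control (log2 fold change 1.56, SE 0.170, edgeR adjusted p = 0.0007). Atf3, a stress-induced transcription factor, had 32.0, 15.3 and 15.8 CPM in cKO, against 1.32, 0.494 and 3.21 CPM in control (log2 fold change 3.65, SE 0.560, edgeR adjusted p = 0.0038). Sesn2, a regulator of mTORC1 signalling that senses leucine, had 30.0, 21.8 and 23.8 CPM in cKO, against 11.2, 11.4 and 13.0 CPM in control (log2 fold change 1.09, SE 0.141, edgeR adjusted p = 0.0016). In each of these 4 genes every cKO library exceeded every control.

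The other 3 that rose, named after their values were seen, were Chac1, a glutathione-degrading enzyme, and the eIF2 kinase genes Eif2ak2 and Eif2ak3, with log2 fold changes of 0.97, 0.84 and 0.53 (edgeR adjusted p = 0.0049, 0.0097 and 0.036). The gene for asparagine synthetase, Asns, also chosen after its values were seen, makes the amino acid that the Nars product joins to tRNA. It had 89.7, 75.2 and 70.5 CPM in cKO, against 85.7, 66.9 and 69.9 CPM in control (log2 fold change 0.08, edgeR adjusted p = 0.773), and its groups overlapped. None of the other listed genes of amino acid synthesis, one-carbon metabolism and amino acid uptake was called (7.87% of all tested genes were). Their log2 fold changes ran from -0.62 for Pycr1 to 0.55 for Mthfd2, both named after their values were seen. These regulators and the synthetases were measured in the same 6 libraries against the same controls.

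Promoters were read because ATF4 binds a composite C/EBP-ATF site and the list was described as holding many ATF4 targets. The motif TGATGNAA was searched on both strands from 250 bases before to 50 after the RefSeq gene start (GRCm38.p6). Promoters were found for 8 of the 10 genes, Mars under its current symbol Mars1. Of these, 5 held the motif (Aars, Gars, Iars, Tars and Yars), Aars at 2 places, against 3.97% of all 32851 promoters in the table. Since the list was described as holding many ATF4 targets, this share is no independent test. It was found in 10 of 32 promoters of the ATF4 pathway list, among them those of Atf3, Chac1 and Asns, in none of 9 promoters of the other cytosolic genes and in none of 15 mitochondrial ones. In the ATF4 pathway list, Trib3, Asns, Pycr1, Slc7a11, Slc1a4, Vldlr, Nupr1 and Got1 held the motif but were not called. Atf4, Ddit3, Sesn2, Eif2ak2 and Eif2ak3 rose and held no motif in this window. These genes are named after their values were seen. The 5 synthetase promoters that held the motif are printed 5' to 3' with it in capitals, together with those of Atf3 and Chac1, which rose. The second strand's form of the motif reads TTNCATCA.
Aars promoter, chr8:111033592-111033891, strand +: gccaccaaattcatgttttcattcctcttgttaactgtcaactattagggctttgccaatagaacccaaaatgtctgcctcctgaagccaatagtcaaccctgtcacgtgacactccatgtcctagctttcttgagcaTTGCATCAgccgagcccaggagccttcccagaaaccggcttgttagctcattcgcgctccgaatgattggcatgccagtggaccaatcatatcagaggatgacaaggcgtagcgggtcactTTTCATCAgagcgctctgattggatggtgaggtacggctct
Gars promoter, chr6:55037751-55038050, strand +: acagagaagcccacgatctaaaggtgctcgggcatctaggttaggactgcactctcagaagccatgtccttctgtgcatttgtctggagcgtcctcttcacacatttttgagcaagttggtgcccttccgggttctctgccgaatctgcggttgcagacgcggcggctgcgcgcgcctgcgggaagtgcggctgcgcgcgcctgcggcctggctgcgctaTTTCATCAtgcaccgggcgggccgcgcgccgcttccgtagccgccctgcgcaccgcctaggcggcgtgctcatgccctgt
Iars promoter, chr13:49681880-49682179, strand +: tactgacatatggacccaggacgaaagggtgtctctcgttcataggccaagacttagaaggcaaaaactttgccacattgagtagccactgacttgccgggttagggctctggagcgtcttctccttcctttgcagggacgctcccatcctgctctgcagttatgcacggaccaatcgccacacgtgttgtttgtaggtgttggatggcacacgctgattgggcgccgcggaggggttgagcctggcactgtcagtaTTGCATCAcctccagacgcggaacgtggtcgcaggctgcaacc
Tars promoter, chr15:11399609-11399908, strand -: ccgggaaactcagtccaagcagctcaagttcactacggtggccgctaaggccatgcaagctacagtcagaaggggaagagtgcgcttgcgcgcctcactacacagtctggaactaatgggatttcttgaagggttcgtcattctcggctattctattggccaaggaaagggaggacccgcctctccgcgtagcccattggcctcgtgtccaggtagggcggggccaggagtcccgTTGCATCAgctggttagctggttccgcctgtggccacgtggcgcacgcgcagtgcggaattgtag
Yars promoter, chr4:129189653-129189952, strand +: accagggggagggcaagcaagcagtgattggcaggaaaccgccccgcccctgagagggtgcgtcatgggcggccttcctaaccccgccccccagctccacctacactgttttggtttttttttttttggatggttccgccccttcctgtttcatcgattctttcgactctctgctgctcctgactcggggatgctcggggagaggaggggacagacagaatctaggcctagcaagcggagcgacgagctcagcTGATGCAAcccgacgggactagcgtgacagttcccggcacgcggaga
Atf3 promoter, chr1:191183284-191183583, strand -: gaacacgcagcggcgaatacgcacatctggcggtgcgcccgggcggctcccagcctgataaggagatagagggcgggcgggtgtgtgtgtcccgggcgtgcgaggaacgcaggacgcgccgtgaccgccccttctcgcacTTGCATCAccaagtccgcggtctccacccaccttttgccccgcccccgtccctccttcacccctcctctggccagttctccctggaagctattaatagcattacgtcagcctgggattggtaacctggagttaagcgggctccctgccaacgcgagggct
Chac1 promoter, chr2:119350992-119351291, strand +: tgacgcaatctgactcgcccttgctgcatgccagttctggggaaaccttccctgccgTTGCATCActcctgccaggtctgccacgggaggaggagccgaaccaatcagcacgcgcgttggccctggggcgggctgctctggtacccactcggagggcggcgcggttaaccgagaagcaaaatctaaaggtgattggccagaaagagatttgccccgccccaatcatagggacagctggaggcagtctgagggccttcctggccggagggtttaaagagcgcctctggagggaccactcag
Counted from 1 at the gene start, with negative positions before it, the motif began at -112 and 10 in Aars, -30 in Gars, -15 in Tars, 8 in Iars and 4 in Yars. In Atf3 it began at -110 and in Chac1 at -193. The same 8 letters, TTGCATCA on this strand, thus stand in the Aars, Iars, Tars, Atf3 and Chac1 windows, while the genes' log2 fold changes were 0.26, 0.08, 0.12, 3.65 and 0.97. Promoters of Eprs, Mars and Sars held no match to these letters in this window. A match is a string of letters in a window and no measurement of binding.

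**Figure D3:**
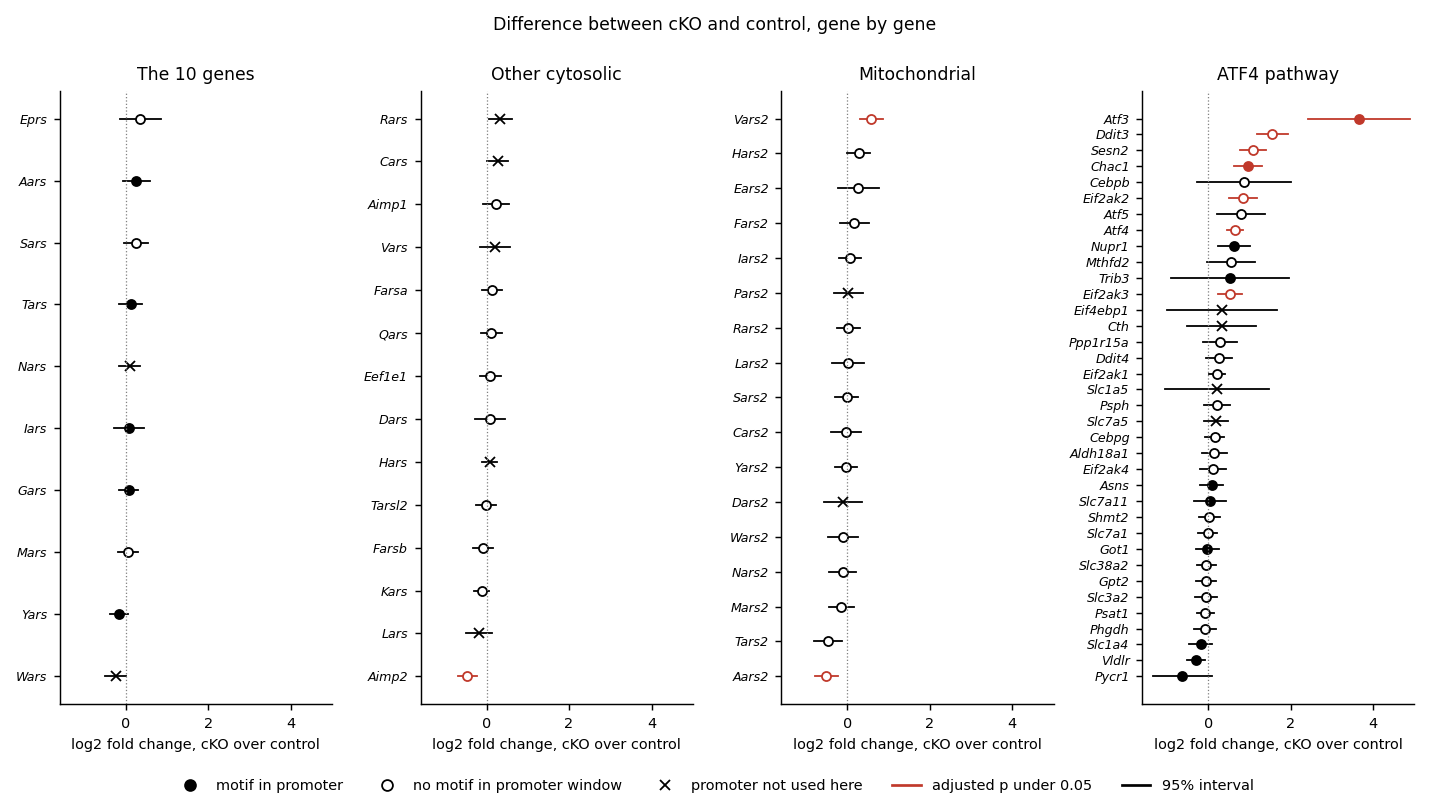
Log2 fold change of cKO over control with its 95% interval for every gene of the 10 cytosolic synthetases, the other cytosolic genes, the mitochondrial genes and the ATF4 pathway, with called genes in red, filled points where the promoter held the motif, open points where it did not and crosses where no promoter was used. All 10 synthetase intervals cross 0, while Atf4 (0.65), Ddit3 (1.56), Atf3 (3.65) and Sesn2 (1.09) lie to the right of 0.

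Splice junctions were the second readout. The 10 genes held 323 junctions with reads, of which 201 are annotated introns in GENCODE M21 and 122 are not. Of these, 64 in 8 genes shared a donor or acceptor with another junction and could be tested for their share of the reads there, none of them in Gars or Tars. None was called, which needed an adjusted p under 0.05 and a change of 5 points or more in share, where 0.751% of 112047 junctions tested in all genes were, 0.659% upward. At any share change, 2 had an adjusted p under 0.05 by edgeR's diffSpliceDGE (2.27% of all junctions tested), and 10 had an unadjusted p under 0.05, none of these with a change of 5 points. The largest share change was 9.64 percentage points.

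Reads on annotated junctions gave a level that leaves out unspliced reads and overlapping genes, in the same libraries as the gene counts. On the scale of RPM over all junction reads of a library, the log2 ratio of cKO over control was above 0 in 9 of the 10 genes and ran from -0.21 for Wars to 0.48 for Eprs, with a median of 0.19. The median over 11342 genes with at least 1000 annotated junction reads was 0.09 on this scale, which is not TMM-scaled. The groups did not overlap in 3 of the 10 genes, near the background of 30.8% of those 11342 genes. In 2 of the 10 every cKO library was higher (21.7% of those genes) and in 1 every cKO library was lower (9.10%). Sars had 218.9, 153.6 and 159.2 RPM in cKO, against 140.9, 138.3 and 131.7 RPM in control. Nars had 334.4, 260.7 and 267.6 RPM in cKO, against 256.5, 260.4 and 239.5 RPM in control. Wars, lower in cKO, had 109.8, 97.8 and 116.64 RPM in cKO, against 141.0, 117.0 and 116.66 RPM in control. The Nars and Wars groups thus lay apart by a very small margin.

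Alternative exons of intermediate use were measured in Eprs, Mars and Sars, and their lengths of 21, 24 and 72 bases are multiples of 3. An annotated Eprs exon of 127 bases was included nearly always, in 96.2, 99.7 and 95.7% in cKO, against 98.1, 96.1 and 97.8% in control, with overlap. Mars and Sars exons are shown as the sequences whose inclusion was measured, on the sense strand (GENCODE M21 transcripts, GRCm38). Capitals in Sars mark the bases between the annotated acceptor and an unannotated one described next.
Mars exon, chr10:127296717-127296740, strand -: ctagaagagtccttggagttaaag
Sars exon, chr3:108427861-108427932, strand -: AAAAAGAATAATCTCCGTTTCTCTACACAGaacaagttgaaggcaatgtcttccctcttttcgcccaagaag
The 24-base Mars exon was included in 84.5, 76.2 and 82.3% of transcripts by junction reads in cKO, against 80.9, 82.4 and 82.7% in control, with overlap. The 72-base Sars exon was included in 26.6, 15.0 and 24.8% in cKO, against 15.6, 16.4 and 14.6% in control. Replicates 1 and 3 of cKO were above every control and replicate 2 was not, and the skipping junction had an adjusted p of 1.00 by diffSpliceDGE. In Eprs an unannotated exon of 21 bases at 185387357 to 185387377 was included in 33.2, 45.5 and 44.9% in cKO, against 45.0, 51.1 and 50.1% in control. Its upstream junction carried 2173 reads over the 6 libraries, the most of any unannotated junction in the 10 genes. The groups overlapped in Eprs as well, and its skipping junction also had a diffSpliceDGE adjusted p of 1.00.

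Sars had several unannotated junctions with more reads in cKO, none with an adjusted p under 0.05. An acceptor 30 bases inside the 72-base exon, just after the capital letters, which end in AG, would leave 42 bases of it. Its junction, with an intron at 108427903 to 108428173, had 26, 17 and 34 reads in cKO, against 3, 0 and 2 in control, or 1.07 ± 0.35% of its cluster in cKO and 0.096 ± 0.087% in control (SD, n = 3 each). All cKO libraries exceeded all controls, but the adjusted p was 0.233 by diffSpliceDGE (unadjusted 0.014). A further pair of Sars junctions, chosen after their values were seen, had introns at 108431597 to 108433017, with 41, 3 and 3 reads in cKO and 0 in every control, and at 108435967 to 108444996, with 29, 1 and 27 reads in cKO and 2, 0 and 0 in control. Their adjusted p values were 0.119 and 0.168 by diffSpliceDGE. The intron at 108435967 to 108444996 skips an annotated exon of 71 bases, which was included in 96.5, 99.8 and 96.1% in cKO, against 99.6, 100 and 100% in control.

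Over the whole gene, unannotated junctions took 0.822, 0.318 and 0.683% of Sars junction reads in cKO, against 0.143, 0.0833 and 0.0206% in control. The groups did not overlap, with an exact two-sided permutation p of 0.1, the smallest that 3 against 3 allows. Sars was the only 1 of the 10 in which every cKO library was higher, whereas this held for 22.0% of genes with enough junction reads. Over whole libraries the unannotated share was 2.13, 2.03 and 2.04% in cKO, against 1.52, 1.98 and 1.69% in control.

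**Figure D4:**
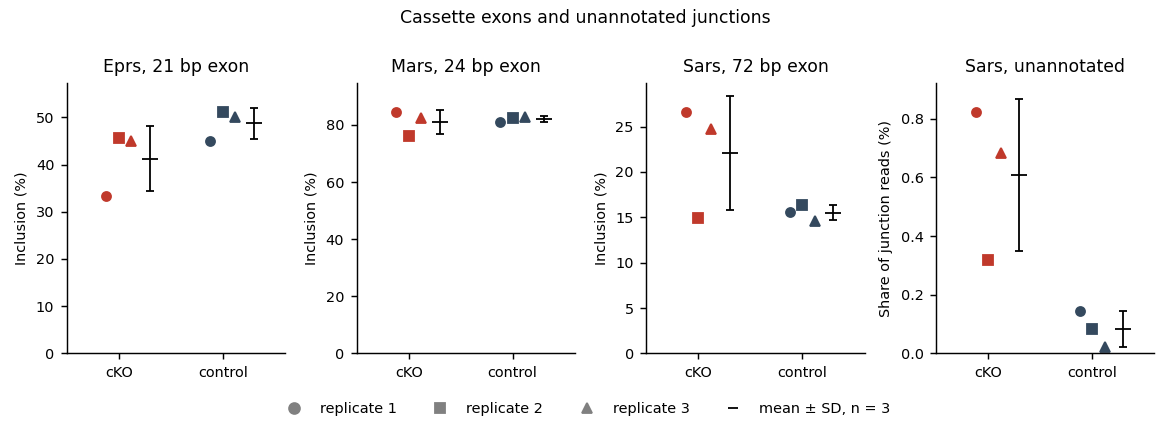
Inclusion of the alternative exons of Eprs, Mars and Sars in percent, and the unannotated share of Sars junction reads in percent, with cKO left of control, points for libraries and bars for mean ± SD (n = 3). The inclusion values overlap between the groups in all 3 genes, while all cKO points of the Sars unannotated share (0.318 to 0.822%) lie above the control points (0.0206 to 0.143%).

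The 2 junctions with an adjusted p under 0.05 were both unannotated and used at low share, and they ran in opposite directions. In Eprs, an intron at 185371046 to 185379544, chosen after its values were seen, had 23, 15 and 19 reads in cKO and 0 in every control. Its share was 1.14 ± 0.17% in cKO and 0 in control (SD, n = 3 each, diffSpliceDGE adjusted p = 0.047). In Mars, an intron at 127296737 to 127296872 had 0 reads in every cKO library, against 0, 40 and 37 in control, so that 1 control library was at 0 as well. Its share was 0 in cKO and 1.17 ± 1.0% in control (SD, n = 3 each, diffSpliceDGE adjusted p = 0.0033). Its acceptor lies 4 bases inside the 24-base exon printed above.

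In the other genes the most used unannotated junction was rare or uneven. In Yars it had 33, 42 and 28 reads in cKO, against 32, 0 and 53 in control. In Iars it had 5, 25 and 0 reads in cKO, against 5, 0 and 6 in control. Wars had 5, 3 and 8 in cKO against 3, 6 and 0 in control, and Aars 6, 0 and 2 in cKO against 0, 0 and 4 in control. Those of Gars, with 16 reads, and Tars, with 10, came each from a single control library and had none in cKO. No unannotated Nars junction reached 10 reads over the 6 libraries. In none of these 6 genes did reads on the most used unannotated junction separate the genotypes, and reads were amplified from cDNA, so counts this low are not independent molecules.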

How the data were processed

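Ribosome-bound RNA from 3 cKO and 3 control cerebella, each from a separate animal per the series design, was amplified with the NuGEN Ovation system and sequenced. The tools were TopHat2 2.1.0 and HTSeq 0.6.0 on build mm10, per the submitters' processing notes. How reads were assigned (annotation, strand, multiple alignments) is not given in the sources used here. The authors deposited raw counts per gene for all 6 libraries and, per the file headers, TopHat junction lists whose scores count the reads that span each junction. Names of 27 rows of the gene counts were turned into dates.

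The gene test was the two-sided quasi-likelihood test of cKO against control in edgeR 4.0.16 (R 4.3.3), after filterByExpr and TMM scaling and without covariates, with Benjamini-Hochberg adjustment over 16067 genes and a threshold of 0.05. CPM values use TMM-scaled library sizes, and SE is the log2 fold change divided by the root of F. Junctions seen in 2 or more libraries, with a total of 10 reads or more, were grouped by shared donor or acceptor and tested with diffSpliceDGE. Coordinates are 1-based mm10. Inclusion is the mean of both inclusion junctions over that mean plus the skipping junction. DESeq2 1.42.0, limma-voom (limma 3.58.1), other scalings and filters, a replicate block and each library left out were alternatives. The tests were first tested on simulated data. There the gene test recovered 50% of genes given a 1.5-fold change and 88% of those given a 2-fold change. Of its calls, 6.18% were false. Reads come from amplified cDNA and are not independent molecules.

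The 10 genes and the other lists were chosen with earlier results of these data known. Named are all 10 genes, Rbm17, from each other list up to 4 called genes with the smallest p, every called junction in the 10 genes, and the most used unannotated junction of each with at least 10 reads. Others were chosen after their values were seen, as the text says of each.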

Additional observations from a re-analysis of the deposited data

How the results depend on the processing

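In none of 14 alternative fits was any of the 10 synthetase genes called, and the smallest adjusted p was 0.065, for Eprs with the replicate block. Counts of genes rising and falling over the whole table were 1071 and 1036 by DESeq2, and without 1 library each they ran from 264 to 501 rising and from 238 to 555 falling. In the same fits 0 to 1 mitochondrial synthetase genes rose. The labels do not say whether the replicate numbers pair the libraries. Deviations from the group means correlated at 0.045, -0.062 and 0.021 across genes for numbers 1, 2 and 3, and 2 of 6 libraries correlated best with their own number. With 3 libraries a group, these values do not settle whether the libraries are paired. With the replicate block 814 genes rose and 920 fell, against 647 and 618 without it. The 10 synthetase genes were not among them, and 0 of their junctions were called. Leaving out 1 library turned the sign of small estimates: the log2 fold change ran from -0.031 to 0.16 for Gars, -0.071 to 0.27 for Iars, -0.035 to 0.17 for Mars and -0.033 to 0.18 for Nars. The other 6 did not change sign in these fits but moved in size, from 0.0021 to 0.24 for Tars, 0.03 to 0.54 for Eprs, 0.09 to 0.39 for Aars, 0.09 to 0.34 for Sars, -0.32 to -0.14 for Wars and -0.24 to -0.11 for Yars. The other scalings moved the median of all genes by under 0.1 on the log2 scale. Junction calls in the 10 genes stayed at 0 under every alternative. With 3 libraries a group, changes well under 1.5-fold are within the intervals of these genes. The intervals of Aars and Eprs also hold a 1.5-fold increase.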

Other observations

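Lars2, Cars and Rars are named here after their values were seen. Lars2, which encodes the mitochondrial leucine enzyme, made up most of the summed level of the mitochondrial list. It had 6920, 11225 and 11369 CPM in cKO, against 10024, 10873 and 8272 CPM in control, with overlap (log2 fold change 0.02, edgeR adjusted p = 0.968). Its gene counts were 1122236 to 1852643 in cKO and 1147482 to 1563649 in control. Its annotated splice junctions carried 2292, 1683 and 1889 reads in cKO, against 2138, 1705 and 1624 in control. Cars and Rars, a cysteine and an arginine enzyme of the cytosol, had unadjusted p values under 0.05 but were not called, with 14.1 CPM in cKO and 11.7 CPM in control for Cars and 47.4 CPM in cKO and 37.5 CPM in control for Rars (edgeR adjusted p = 0.206 and 0.143).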
